A study of Mus musculus with 6 samples.

Results

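The genes described encode adhesion molecules linked to the entry of leukocytes into the inflamed spinal cord. They are the 6 integrin subunits Itga4, Itgb1, Itgb7, Itgal, Itgb2 and Itgam, the selectin ligand Selplg and the integrin ligand Icam1. They were taken as a named list of 8 members, chosen by function from the 19449 genes in the single-cell table. The list was chosen with earlier results of these data known, so it was not blind to them. All 8 members were detected. Each was read in each deposited cluster of cells and in each library.

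The cells were CD45+ leukocytes sorted from spinal cords of C57BL/6 mice with experimental autoimmune encephalomyelitis (EAE), a model of demyelinating disease that was induced here by adoptive transfer. All recipients, at both ages, received CD4+ T cells reactive to myelin oligodendrocyte glycoprotein (MOG) that had been taken from immunized CD45.1 congenic donors aged 8 to 12 weeks and restimulated in culture with MOG peptide, IL-23, IL-1α and an antibody to IFN-γ. There was 1 library per age and day: Young_d6, Middle-aged_d6, Young_d10 and Middle-aged_d10, where the recipients were 8 to 12 or 40 to 44 weeks old, the cords were taken 6 or 10 days after transfer, and 4 cords were pooled per library. Also sequenced were bulk microglia from naive mice, sorted as CD11b+ cells with intermediate CD45, as 1 library for each age (Young_naive and Middle-aged_naive). With 1 library per age and day, no difference between 2 libraries has a replicate check, and values of the 4 libraries are listed in the order Young_d6, Middle-aged_d6, Young_d10, Middle-aged_d10.

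The 4 libraries held 8315 to 10026 cells each and 57337626 to 69859331 UMIs (unique molecular identifiers, each counting 1 captured transcript), with a median of 4704.5 to 6196 UMIs per cell, and 154 barcodes occurred in 2 libraries. Of the 16 deposited clusters, 11 could be named from marker genes. These were T cell-like (cluster 2), NK cell-like (9), B cell-like (4), monocyte/macrophage-like (1 and 5), dendritic cell-like (7), neutrophil-like (0, 3 and 6) and microglia-like (8 and 10). The 2 weakest names were those of clusters 0 and 1, in which no marker of the named type was among the 10 leading genes. Cluster 0 nevertheless held all 11 neutrophil markers, at a summed 44207 CPM, and was led by Il1f9, Cxcl2 and Chil1. CPM is the number of UMIs of a gene per 1000000 UMIs summed over the cells of 1 cluster and library. Because the clusters were made from the same expression values, differences between clusters are given as descriptions without a test.

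Integrins are paired α and β chains on the leukocyte surface that hold the rolling cell firmly to endothelium once chemokines switch them to a sticky shape. Itga4 encodes the α4 chain, which pairs with β1 (Itgb1) as VLA-4, the receptor for VCAM-1 and fibronectin, or with β7 (Itgb7) as the gut-homing α4β7. Blocking α4 keeps lymphocytes out of the central nervous system and is a treatment for multiple sclerosis. Itgal and Itgb2 form LFA-1, Itgam and Itgb2 form Mac-1 (CD11b/CD18), and both bind ICAM-1, the product of Icam1. Selplg encodes PSGL-1, the mucin that engages P-selectin during rolling.

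In the GENCODE annotation of GRCm38, the same assembly as mm10, the members are protein-coding genes: Itga4 (chromosome 2, 79255426 to 79333123), Itgb1 (chromosome 8, 128685654 to 128733200), Itgb7 (chromosome 15, 102215995 to 102231944), Itgal (chromosome 7, 127296260 to 127335138), Itgb2 (chromosome 10, 77530252 to 77565708), Itgam (chromosome 7, 128062640 to 128118491), Selplg (chromosome 5, 113818536 to 113832644) and Icam1 (chromosome 9, 21015985 to 21028817). Itgb7 and Selplg lie on the minus strand. The promoter of Icam1 is shown because its level was lower on day 10 than on day 6 in most clusters. It is the RefSeq window of GRCm38.p6 that ends at the base before the transcription start (chr9:21015690-21015939, plus strand), with the match to GGAANTTCC, an NF-κB-type motif, in capitals.
Icam1: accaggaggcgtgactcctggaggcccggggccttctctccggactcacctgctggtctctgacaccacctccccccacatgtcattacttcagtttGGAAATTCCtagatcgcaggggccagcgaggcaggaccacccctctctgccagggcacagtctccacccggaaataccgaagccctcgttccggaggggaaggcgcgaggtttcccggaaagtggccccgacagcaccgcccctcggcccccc
The match begins 153 bases before the RefSeq start, which lies upstream of the GENCODE start of the gene given above. The motif reads the same on both strands and was found in 267 of 32851 RefSeq promoter windows of the same 250 bases (0.813%). Among the 5 members with a window in this table (Itga4, Itgb1, Itgb7, Itgam and Icam1), the Icam1 window was the only one with a match. A match of letters is a description and not a shown binding site.

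The α4 and β1 chains of VLA-4 were highest in NK cell-like cells, and β7 was highest in T cell-like cells. Itga4 averaged 297 ± 44.97 CPM (SD over 4 libraries, as below) in NK cell-like cells, 271 ± 12.02 CPM in dendritic cell-like cells and 238 ± 84.2 CPM in monocyte/macrophage-like cluster 5. Its level was lower in T cell-like cells (205, 131, 124 and 163 CPM) than in B cell-like cells (203, 203, 161 and 198 CPM) on average, although the ranges of the 2 clusters overlapped. The lowest mean Itga4 levels were those of the microglia-like clusters, with 31.5 to 38.4 CPM in cluster 8 and 31.3 to 49.8 CPM in cluster 10, although neutrophil-like cluster 6 (19.9 to 72.1 CPM) held lower single libraries. For each of the 10 pairs of neighbouring clusters in this order, the ranges over libraries overlapped, so the order of the means was not resolved step by step.

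Itgb1, the shared β1 chain of VLA-4 and of other integrins, measured 469, 468, 451 and 517 CPM in NK cell-like cells, above every other named cluster without overlap. It measured 384, 237, 198 and 228 CPM in T cell-like cells, where the Young_d6 library stood above the other 3. In B cell-like cells and in neutrophil-like clusters 3 and 6 it averaged only 45.7, 37.6 and 52.4 CPM. Itgb7, the alternative partner of α4, measured 319, 224, 234 and 254 CPM in T cell-like cells, again without overlap with the next cluster, the NK cell-like cells (154, 156, 171 and 181 CPM). It averaged 159 CPM in dendritic cell-like cells and 155 CPM in monocyte/macrophage-like cluster 5, but 7.04 CPM in neutrophil-like cluster 6, a span of 36.6-fold over the named clusters.

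Both partners of α4 were measured in the T cell-like cluster, and the UMI counts of the 2 genes were close there. The T cell-like cluster held 1.20, 1.06, 0.848 and 0.899 Itgb1 UMIs per Itgb7 UMI. Both day-6 values were above both day-10 values, and in the young libraries the intervals were 1.14 to 1.27 on day 6 and 0.81 to 0.89 on day 10. NK cell-like cells held 3.04, 3.0, 2.64 and 2.86, and microglia-like cluster 10 held 10.3, 12.2, 5.20 and 6.84. In neutrophil-like cluster 0 the ratio was 7.09, 22.7, 4.12 and 7.49, and Middle-aged_d6 stood above the other 3 libraries. The ratio is read only across samples, since the share of transcripts captured can differ between the genes.

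**Figure D1:**
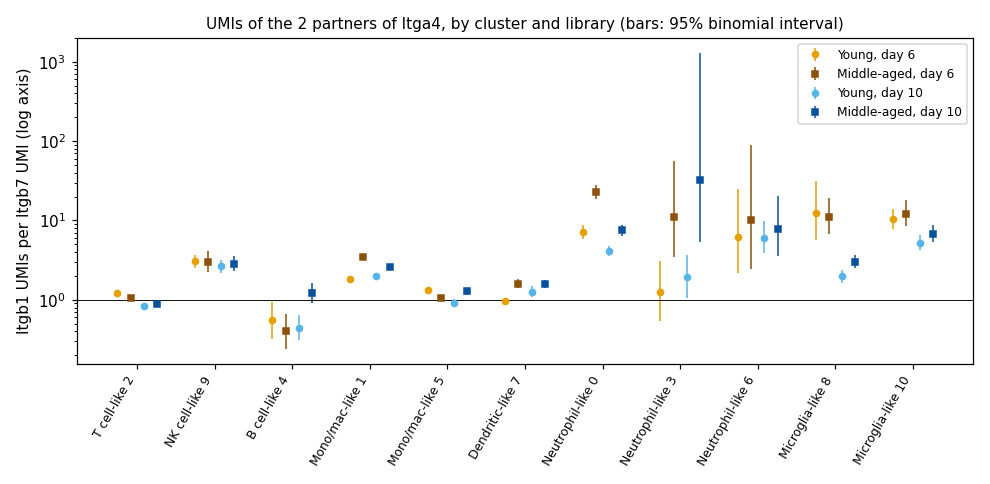
UMIs of Itgb1 per UMI of Itgb7 (log axis) in the 11 named clusters, with 1 point per library and 95% binomial intervals for counting error. T cell-like cells sit near 1, NK cell-like cells near 3, and neutrophil-like clusters 0 and 6 and microglia-like cluster 10 above 4 in each library.

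Itgal and Itgb2, the chains of LFA-1, were not distributed alike. Itgal averaged 261 ± 17.4 CPM in NK cell-like cells, 233 ± 76.1 CPM in neutrophil-like cluster 3 and 205 ± 6.82 CPM in T cell-like cells, whose 4 libraries spanned only 196 to 212 CPM. B cell-like cells had the lowest Itgal (19.03, 25.7, 32.8 and 43.3 CPM). Itgb2, whose chain is required by both LFA-1 and Mac-1, was highest in monocyte/macrophage-like cluster 1 (489, 683, 556 and 436 CPM), without overlap with the next cluster, neutrophil-like cluster 6 (414, 391, 431 and 409 CPM). T cell-like cells measured 172, 177, 215 and 219.5 CPM and B cell-like cells 33.6, 35.4, 31.4 and 55.2 CPM.

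Itgam had the widest span of the 8 members, 83.1-fold between the highest and the lowest mean of a named cluster. It averaged 648 ± 23.9 CPM in neutrophil-like cluster 6, 608 ± 131 CPM in microglia-like cluster 10 and 574 ± 71.2 CPM in monocyte/macrophage-like cluster 1, and these 3 overlapped. Levels in T cell-like cells were 7.62, 9.18, 8.52 and 5.89 CPM. After each cell was thinned to 2000 UMIs, with shallower cells left out, 1.49%, 2.19%, 1.86% and 1.19% of T cell-like cells held an Itgam UMI. The same share was 62.4%, 67.8%, 61.6% and 58.9% in monocyte/macrophage-like cluster 1. Before thinning, the shares were 3.67%, 4.49%, 5.41% and 3.25% in T cell-like cells and 92.1%, 96.4%, 94.2% and 94.5% in cluster 1. T cells mostly lack CD11b, and whether the Itgam UMIs in T cell-like cells were their own or carried over from other cells was not tested. Most cells of T cell-like cluster 2 and monocyte/macrophage-like cluster 1 were deep enough to keep (1095 to 2357 and 2148 to 2740 per library). NK cell-like cells (95.2, 81.9, 121 and 128 CPM) and dendritic cell-like cells (105, 126, 80.3 and 89.4 CPM) stood between, and their ranges overlapped.

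Selplg was highest in neutrophil-like cluster 3 (933, 757, 530.1 and 771 CPM) and in NK cell-like cells (729, 616, 699.7 and 591 CPM), which overlapped. When UMIs were pooled over the libraries, NK cell-like cells ranked first in place of cluster 3, the only member whose top cluster changed. Microglia-like cluster 10 measured 713, 652, 410.3 and 419.8 CPM and T cell-like cells 463, 435, 321 and 314 CPM. Of T cell-like cells 56.7%, 55.2%, 46.1% and 44.8% held a Selplg UMI after thinning, and both day-6 shares lay above both day-10 shares. B cell-like cells were lowest (54.9, 57.9, 46.5 and 49.2 CPM), and monocyte/macrophage-like cluster 1 was next (144, 123, 138 and 125 CPM).

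Icam1 was highest in neutrophil-like cluster 0, with 1104, 1182, 719.7 and 716 CPM and no overlap with any other named cluster. Microglia-like cluster 10 came next (359, 291, 225 and 225 CPM). T cell-like cells measured 83.2, 90.5, 43.2 and 43.3 CPM and B cell-like cells 32.5, 33.8, 39.6 and 38.2 CPM, and after thinning 64.6%, 66.9%, 51.9% and 50.1% of cluster 0 cells held an Icam1 UMI against 5.11%, 6.79%, 7.35% and 6.69% of B cell-like cells. Before thinning these shares were 65.6%, 66.4%, 51.9% and 50.2% and 7.80%, 10.9%, 9.21% and 10.7%. Cluster 0 cells were shallow, with library medians of 2193 to 2365 UMIs, and thinning kept 1030 to 2438 of them per library. All these levels are from sorted CD45+ cells, so Icam1 of the endothelium was not measured in these libraries.

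**Figure D2:**
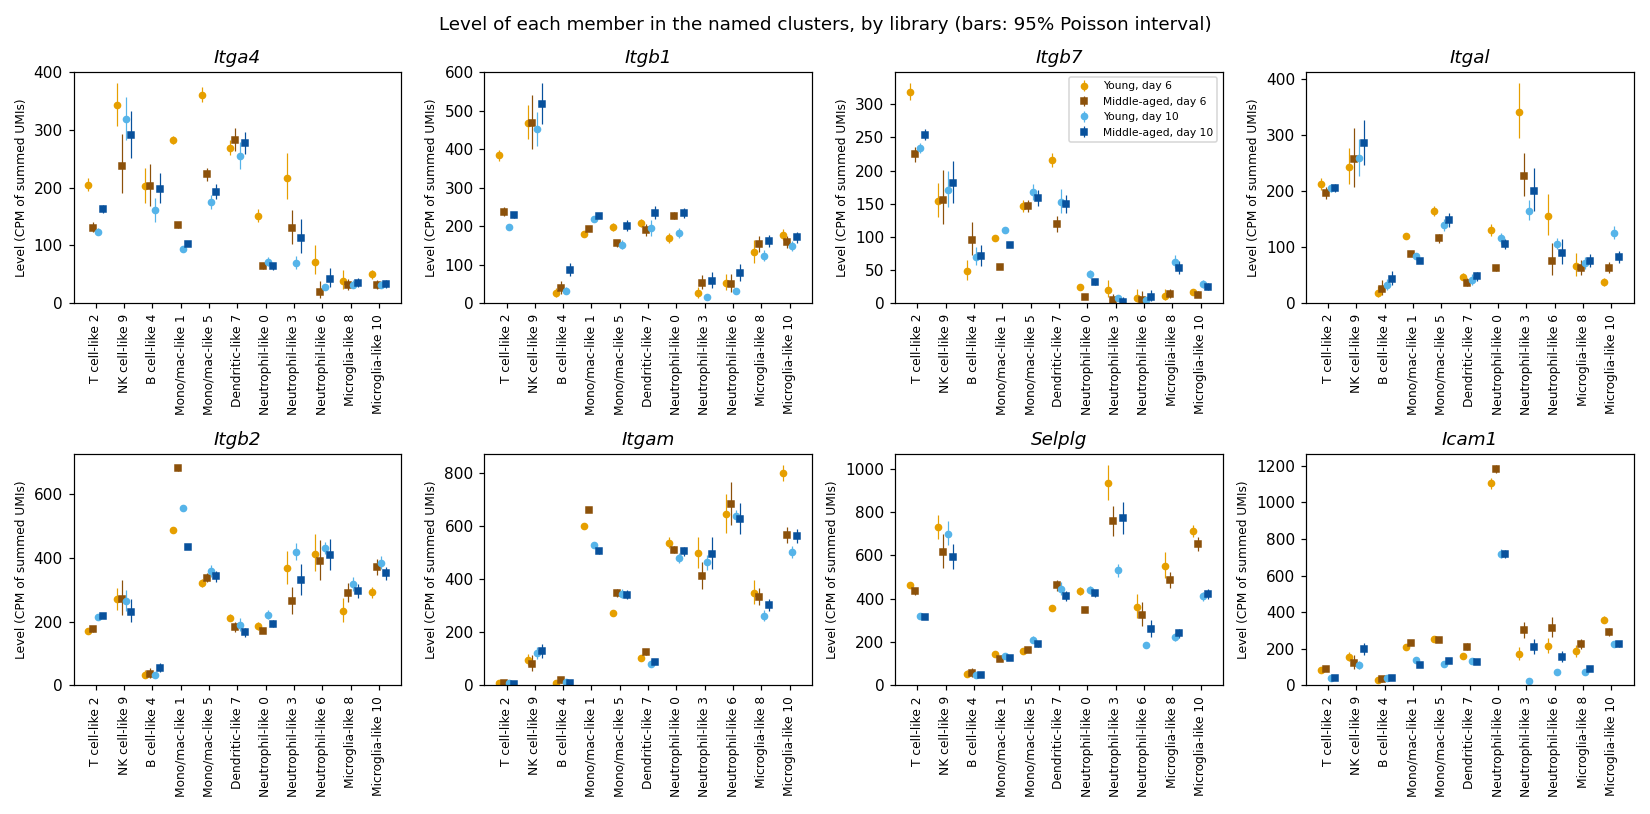
Level of each member in CPM of summed UMIs (linear axes from 0) in the 11 named clusters, with 1 point per library and 95% Poisson intervals for counting error. Icam1 stands apart in neutrophil-like cluster 0, Itgam is near 0 in T cell-like and B cell-like cells, and the Young_d6 point is the highest Itga4 point in 10 of the 11 clusters.

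Cells with UMIs of both chains of a heterodimer were also counted after thinning. Of T cell-like cells 14.5%, 7.67%, 6.76% and 10.2% held Itga4 and Itgb1 together and 13.02%, 7.85%, 8.41% and 10.5% held Itga4 and Itgb7. Both were highest in Young_d6. Of the same cells, 28.5% (95% interval, 26.01 to 31.03%) in Young_d6 and 21.3% (95% interval, 18.9 to 23.8%) in Middle-aged_d6 held an Itga4 UMI, and 40.5% (95% interval, 37.8 to 43.2%) and 31.3% (95% interval, 28.6 to 34.2%) held an Itgb1 UMI. Itgal and Itgb2 were found together in 10.4%, 8.49%, 11.4% and 11.7% of these cells. In monocyte/macrophage-like cluster 1, Itgam and Itgb2 were found together in 37.6%, 47.2%, 38.8% and 34.6%. Transcripts missed at 2000 UMIs lower these shares, and background UMIs and doublets, which were not removed, raise them. In T cell-like cells the share with Itgam and Itgb2 together was 0.235%, 0.731%, 0.692% and 0.509%.

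Which genes followed the members over the clusters was described by Pearson correlation of log2(CPM + 1) over the 16 clusters, among 5119 genes with a mean of at least 50 CPM in a cluster. The closest genes were Ahr (0.945), St8sia4 (0.902) and Arhgap26 (0.897) for Itga4, Ccl5 (0.936), AW112010 (0.912) and Id2 (0.908) for Itgb1 and S100a10 (0.972), Tpt1 (0.961) and Crybg1 (0.958) for Itgb7. They were Nabp1 (0.861), Emb (0.844) and Hcst (0.832) for Itgal, Glrx (0.867), Myo1f (0.829) and Arpc1b (0.822) for Itgb2 and Gng12 (0.948), Sirpa (0.946) and Tyrobp (0.944) for Itgam. For Selplg they were Prex1 (0.851), Fyb (0.783) and Rgs3 (0.771), and for Icam1 they were Cd274 (0.930), Trim30d (0.926) and Arf2 (0.926). The 16 points share their 4 libraries and were made by clustering on these genes, so no test applies.

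The first comparison asked whether the entry genes differed between middle-aged and young recipients in the same cluster on the same day. A member was counted when its CPM differed by at least 1.5-fold and it had 100 or more UMIs in both libraries together. This was done for clusters 0, 1, 2, 4 and 10, and intervals are exact binomial and cover counting error only. On day 6, 10 of 33 member values passed this size over the 5 clusters, 8 lower and 2 higher in middle-aged mice, and on day 10, 3 of 38 did. Of all genes, 8.37% to 13.1% passed it in a cluster on day 6 and 2.33% to 5.06% on day 10.

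Itga4 was lower in the middle-aged library on day 6 in 4 of these clusters. This was not particular to them. Over all cells of each library Itga4 measured 249, 133, 101 and 125 CPM, and Young_d6 was highest in 10 of the 11 named clusters. In monocyte/macrophage-like cluster 1 Itga4 was at 282, 135, 94.6 and 103 CPM in the 4 libraries. Young_d6 stood above the other 3, which lay within 1.5-fold of each other, and the log2 ratio of middle-aged to young was -1.07 (95% interval, -1.13 to -1.01) on day 6 and 0.12 (95% interval, 0.03 to 0.20) on day 10. After thinning, 39.9%, 19.4%, 16.5% and 17.6% of these cells held an Itga4 UMI. In neutrophil-like cluster 0 the levels were 151, 64.9, 72.1 and 63.5 CPM, with a log2 ratio of -1.22 (95% interval, -1.38 to -1.07) on day 6 and -0.18 (95% interval, -0.40 to 0.04) on day 10, and again Young_d6 alone was high. Monocyte/macrophage markers summed to 1228, 648, 1377 and 1257 CPM in cluster 0 and NK cell markers to 7.66, 3.60, 19.6 and 14.5 CPM, both lowest in Middle-aged_d6. In cluster 1, T cell markers summed to 29.9, 12.3, 33.3 and 36.2 CPM, NK cell markers to 16.6, 4.08, 10.1 and 11.2 CPM, B cell markers to 69.7, 27.8, 35.2 and 25.2 CPM and dendritic cell markers to 26.8, 12.04, 5.78 and 7.03 CPM, each over 2-fold lower in Middle-aged_d6 than in Young_d6. Without cells holding markers of another lineage, the day-6 log2 ratio of Itga4 was -1.16 in cluster 0 and -1.07 in cluster 1.

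Itgb7 was lower with it in both clusters on day 6. It measured 97.9, 55.3, 109.7 and 87.9 CPM in cluster 1, with a day-6 log2 ratio of -0.82 (95% interval, -0.92 to -0.73), and 23.8, 10.01, 44.2 and 31.3 CPM in cluster 0, with -1.25 (95% interval, -1.65 to -0.85). Itgal, the LFA-1 α chain, measured 130.3, 62.8, 115 and 106 CPM in cluster 0, with a day-6 log2 ratio of -1.05 (95% interval, -1.21 to -0.89). In both clusters the Middle-aged_d6 library was the lowest of the 4 for Itgb7. In cluster 0, 3 of 8 members passed the size, all lower, where 10.7% of 5652 genes did in either direction. In cluster 1, 2 of 8 did, where 12.7% of 9438 genes did. On day 10, 0 of 8 passed in either cluster, where 2.86% and 3.09% of all genes did.

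T cell-like Itga4 and Itgb1 passed the size on day 6, both lower in the middle-aged library, which were 2 of 8 members where 8.37% of 7646 genes passed. Itga4 had a log2 ratio of -0.65 (95% interval, -0.77 to -0.53) on day 6 and 0.39 (95% interval, 0.30 to 0.48) on day 10, so the sign differed between days. Itgb1 had a log2 ratio of -0.69 (95% interval, -0.78 to -0.61) on day 6 and 0.20 (95% interval, 0.13 to 0.28) on day 10. The Itga4 value fell under 1.5-fold with TMM scaling (-0.57), as the mean over cells (-0.47) and without cells holding markers of another lineage (-0.43), and the Itgb1 value did so without those cells (-0.32). Summed neutrophil markers in this cluster were 94.7, 240.4, 492 and 127 CPM and monocyte/macrophage markers 748, 582, 426 and 417 CPM, highest for the latter in Young_d6. Without cells holding such markers both ratios were nearer 0, as given. On day 10, 0 of 8 members passed, where 2.33% of 9126 genes did. Itgal, Itgb2 and Selplg differed little on either day, with day-6 log2 ratios of -0.12 (95% interval, -0.22 to -0.01), 0.05 (95% interval, -0.07 to 0.16) and -0.09 (95% interval, -0.16 to -0.02).

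The B cell-like cluster was small, with 184 to 543 cells per library, and only 2 members on day 6 and 6 on day 10 had enough UMIs. Itgb7 was higher in the middle-aged library on day 6 (43 and 59 UMIs in young and middle-aged, log2 ratio 0.98 (95% interval, 0.39 to 1.58)), where 13.1% of 1885 genes passed the size. On day 10 its levels were 70.4 and 70.5 CPM, a log2 ratio of 0.00 (95% interval, -0.43 to 0.43). Itgb1 measured 26.9, 38.6, 31.4 and 85.7 CPM in these cells. Middle-aged_d10 stood apart from the other 3, with a day-10 log2 ratio of 1.45 (95% interval, 0.93 to 1.98) from 46 and 101 UMIs. Itgb2 had a day-10 log2 ratio of 0.81 (95% interval, 0.24 to 1.39), and 5.06% of 2946 genes passed on that day.

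In microglia-like cluster 10, Itga4 was lower on day 6 (171 and 75 UMIs, log2 ratio -0.66 (95% interval, -1.07 to -0.26)), but the value was -0.12 as the mean over cells. Itgal measured 37.2, 62.95, 125 and 81.9 CPM, so its log2 ratio was 0.76 (95% interval, 0.41 to 1.11) on day 6 and -0.61 (95% interval, -0.84 to -0.39) on day 10, in opposite directions. Summed neutrophil markers in this cluster were 4555, 1341, 6035 and 3751 CPM and NK cell markers 15.1, 10.1, 86.5 and 11.1 CPM, the latter highest in Young_d10 as Itgal was, and their part in the Itgal values was not tested. In this cluster 12.3% of 6668 genes passed on day 6 and 3.68% of 6712 on day 10. Itgam, high in microglia, measured 800.1, 567, 502 and 564 CPM, and its log2 ratio was -0.50 (95% interval, -0.59 to -0.40) on day 6. Summed microglia markers were 9929.5, 6199.6, 6514 and 6371 CPM in this cluster, also highest in Young_d6, and their part in the Itgam values was not tested.

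**Figure D3:**
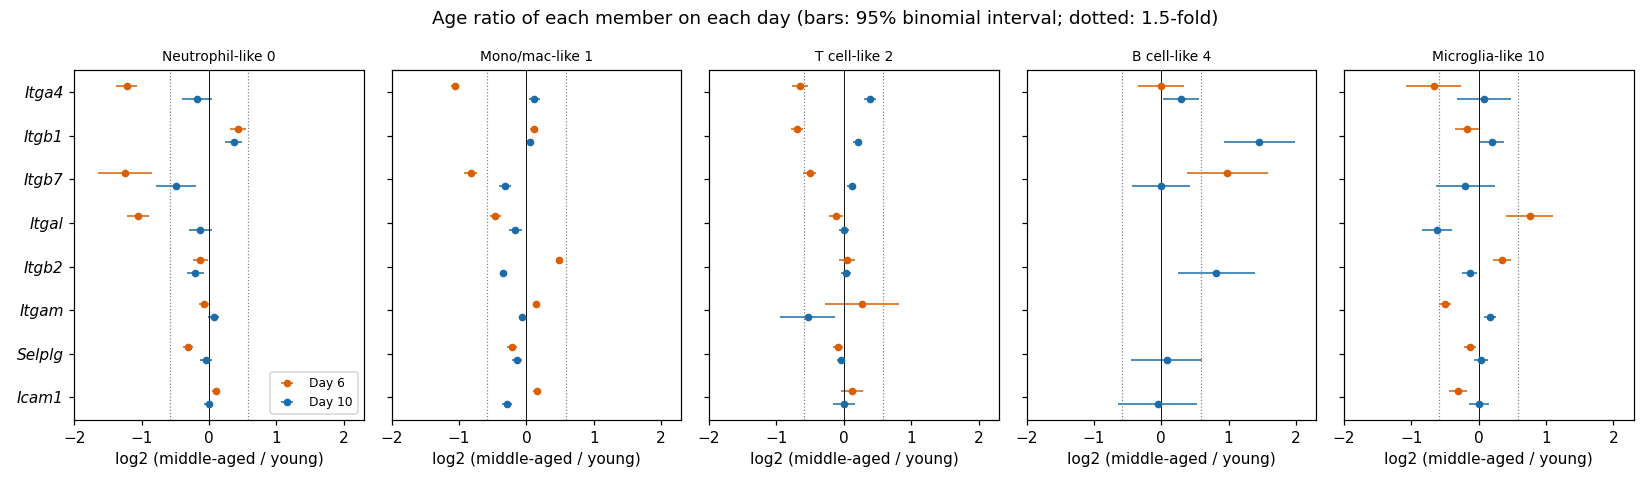
Log2 ratio of CPM, middle-aged over young, for each member in the 5 clusters compared, on day 6 and on day 10, with 95% binomial intervals for counting error and dotted lines at 1.5-fold. Members with fewer than 100 UMIs in both libraries are not drawn. The day-6 points for Itga4 lie left of 0 in 4 clusters and near 0 in B cell-like cells, and most day-10 points lie between the dotted lines.

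A test across libraries was possible only with both days together. It was made by edgeR's quasi-likelihood test on the summed UMIs with day in the model, 2 libraries per age and 1 residual degree of freedom. For age, 0 of 8 members passed an adjusted p of 0.05 in clusters 0, 1, 2 and 10, where 0.208%, 0.0982%, 0.0616% and 0.142% of all genes did. At an unadjusted p under 0.05 there were 4, 1, 0 and 0 members, where 736 of 9593, 405 of 12222, 279 of 11362 and 356 of 10562 genes were. DESeq2 called no member in any of the 4 clusters. The 4 in cluster 0 were Itga4 (log2 -0.68, adjusted p = 0.197), Itgb7 (-0.79, adjusted p = 0.165), Itgal (-0.54, adjusted p = 0.328), all toward lower, and Itgb1 (0.45, adjusted p = 0.215), toward higher. Without the filter on low counts, 3 of 8 were called in this cluster, where of 16025 genes 54 were called higher and 127 lower.

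In B cell-like cells 1 of 8 members was called for age, where 0.896% of 7364 genes were. Itgb1 was higher in middle-aged mice (log2 1.24, adjusted p = 2.43e-04, and 1.13, adjusted p = 0.0271 without scaling factors). The day-6 difference alone rested on 24 and 24 UMIs, with a log2 ratio of 0.52 (95% interval, -0.36 to 1.40). The call was lost without the Young_d6 or the Middle-aged_d10 library, without the day term and with DESeq2. Monocyte/macrophage markers in this cluster summed to 166, 188, 272 and 451 CPM, highest in Middle-aged_d10 too, and the day-10 log2 ratio was 1.34 without cells holding markers of another lineage.

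The second comparison asked how the members differed between day 6 and day 10. It was read from the day term of the same fits after the levels had been seen. The scaling mattered here. The TMM factors, which set the bulk of genes to no change, moved each day ratio in neutrophil-like cluster 0 by -0.66 (young) and -0.76 (middle-aged) on the log2 scale, and in cluster 1 by -0.10 and -0.24. Each fit was therefore repeated on total UMIs without these factors, an alternative added after seeing the data. In CPM, Icam1 was lower on day 10 in all 10 named clusters with 100 or more UMIs in the young libraries and in 9 of 10 in the middle-aged libraries. The exception was the NK cell-like cluster in middle-aged mice (156, 124, 112 and 196 CPM), where the log2 ratio of day 10 to day 6 was 0.66 (95% interval, 0.17 to 1.17). The median log2 ratio over these clusters was -0.81 at both ages.

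Icam1 fell by day in 3 of the 5 clusters tested. In neutrophil-like cluster 0 the log2 change was -1.43, adjusted p = 5.23e-07, in monocyte/macrophage-like cluster 1 it was -0.97, adjusted p = 0.00392, and in T cell-like cells it was -0.90, adjusted p = 0.00272 (edgeR, Benjamini-Hochberg). In all 3, both day-10 libraries lay below both day-6 libraries. The 3 calls held without scaling factors, with log2 changes of -0.67, adjusted p = 1.01e-04, -0.81, adjusted p = 0.00807 and -1.004, adjusted p = 5.93e-04. In microglia-like cluster 10 the log2 change was -0.37, adjusted p = 0.383, and in B cell-like cells 0.30, adjusted p = 0.765, neither past the threshold. The calls of Icam1 in clusters 1 and 2 were lost without either day-10 library.

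In CPM, Itga4 was lower on day 10 in all 11 named clusters in young mice, with log2 ratios of -1.64 to -0.08. In middle-aged mice it was lower in 6 and higher in 4 of 10 clusters, with log2 ratios of -0.39 to 0.32. For T cell-like cells the young ratio was -0.73 (95% interval, -0.83 to -0.63) and the middle-aged ratio 0.32 (95% interval, 0.21 to 0.43). In monocyte/macrophage-like cluster 5, which was outside the clusters tested, the levels were 361, 223, 175 and 193 CPM. Whether the day difference depended on age could not be tested with 1 library per age and day. Over both ages, Itga4 fell in cluster 0 (log2 -1.30, adjusted p = 4.48e-05) and in cluster 1 (log2 -1.15, adjusted p = 0.00358) by edgeR. Without scaling factors the log2 changes were -0.55, adjusted p = 0.0108 and -0.98, adjusted p = 0.0097, and both stayed called. In CPM the cluster 0 ratio was -1.07 (95% interval, -1.26 to -0.88) in young and -0.03 (95% interval, -0.22 to 0.16) in middle-aged mice, so the levels differed between days in the young libraries. The call in cluster 1 was lost without either day-10 library. The T cell-like value (log2 -0.10, adjusted p = 0.892) did not pass in the edgeR fit.

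Itgb7 and Itgal were higher on day 10 in microglia-like cluster 10. Itgb7 measured 17.2, 13.01, 28.7 and 25.04 CPM there (log2 0.98, adjusted p = 0.0308, edgeR), and Itgal had a log2 change of 1.22, adjusted p = 0.0202 in the same fit. Itgb7 rested on 31 to 101 UMIs per library and Itgal on 128 to 440. DESeq2 called neither, and without scaling factors Itgal was called (log2 1.07, adjusted p = 0.0124) and Itgb7 was not (log2 0.83, adjusted p = 0.0504). In cluster 10, T cell markers summed to 81.2, 62.5, 145 and 96.1 CPM and monocyte/macrophage markers to 4967, 4115, 5597 and 6469 CPM. Both sets were higher in both day-10 libraries than in both day-6 libraries. B cell and dendritic cell markers were lower on day 10 at each age. Leaving out cells with markers of another lineage kept only 3, 1, 0 and 0 cells of the cluster, so the part of these markers in the day values was not tested. Microglia-like cluster 8 was outside the tested clusters and held 10.8, 13.8, 62.3 and 53.2 CPM of Itgb7, with both day-10 libraries above both day-6 libraries. In cluster 0, Itgb7 was called higher (log2 0.51, adjusted p = 0.047, and 1.26, adjusted p = 2.17e-05 without scaling factors). The call was lost with RLE size factors, without the age term, with DESeq2 and without the Young_d10 library, and its log2 change was -0.07 without the Middle-aged_d6 library.

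Selplg was lower on day 10 in both microglia-like clusters at both ages. Cluster 8 measured 553, 485, 223 and 239.7 CPM, with log2 ratios of -1.31 (95% interval, -1.51 to -1.12) in young and -1.02 (95% interval, -1.18 to -0.85) in middle-aged mice. In cluster 10 the edgeR value was -0.57, adjusted p = 0.225, which did not pass the threshold, although the day-6 and day-10 levels did not overlap. For T cell-like cells it was -0.39, adjusted p = 0.301.

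In neutrophil-like cluster 0, 8 of 8 members were called for day, where 54.4% of 9593 genes were. By TMM 7 were lower, but only Icam1 and Itga4 were called lower without scaling factors, and Itgb7, called higher under both of these scalings, was not called with RLE size factors or DESeq2. Itgb1, Itgal, Itgb2 and Selplg changed sign without them, from -0.68, -0.47, -0.55 and -0.61 to 0.08, 0.29, 0.21 and 0.15, so no direction is given for them. Itgam was at -0.85 by TMM and -0.09 without them. Over all genes of the cluster the calls were 2605 higher and 2613 lower by TMM, and 5916 higher and 1044 lower without scaling factors.

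In monocyte/macrophage-like cluster 1, 3 of 8 members were called for day, where 29.9% of 12222 genes were. They were Itga4, Icam1 and Itgal (log2 -0.54, adjusted p = 0.044), all lower, and the call of Itgal was lost without scaling factors (log2 -0.37, adjusted p = 0.154). Over all genes there were 1802 higher and 1852 lower calls by TMM, and 2435 and 1301 without scaling factors. Of the T cell-like values 1 of 8 was called (Icam1), where 7.22% of 11362 genes were (451 higher and 369 lower, or 381 and 504 without scaling factors). In microglia-like cluster 10, 2 of 8 were called, where 6.64% of 10562 genes were (336 higher and 365 lower, or 288 higher and 744 lower without scaling factors). For B cell-like cells it was 0 of 8, where 2.77% of 7364 genes were. At an unadjusted p under 0.05 there were 2 members in these cells, where 837 of 7364 genes were, and DESeq2 called 0 members. When the Young_d10 library was left out the counts were 4 in cluster 0 and 0 in clusters 1, 2 and 10, and without Middle-aged_d10 they were 5, 0, 0 and 1.

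**Figure D4:**
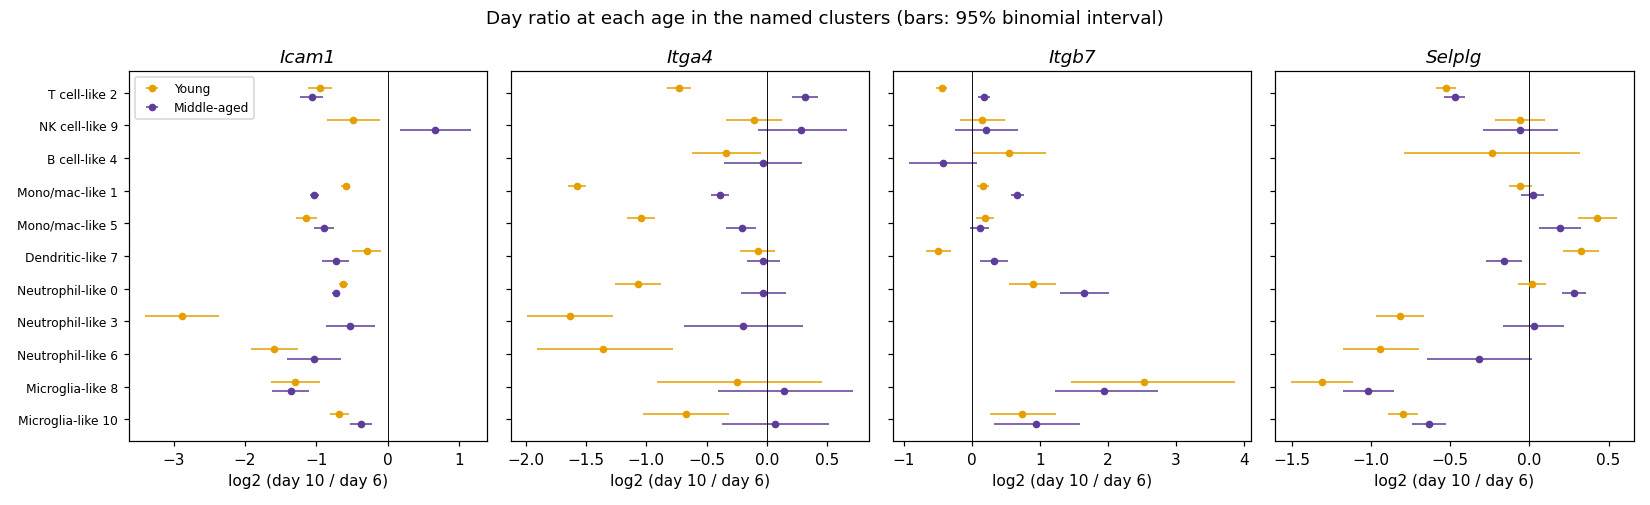
Log2 ratio of CPM, day 10 over day 6, for Icam1, Itga4, Itgb7 and Selplg in the 11 named clusters at each age, with 95% binomial intervals for counting error. Ratios with fewer than 100 UMIs are not drawn. Icam1 points lie left of 0 except in NK cell-like cells of middle-aged mice, and Itga4 points lie left of 0 in young mice.

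The other genes of the adhesion cascade were counted as 5 lists. In T cell-like cells, 8.37% of all genes passed 1.5-fold between ages on day 6 and 2.33% on day 10, in either direction. On day 6, of the other integrin subunits 1 of 5 with enough UMIs was lower in the middle-aged library and 0 were higher. Of the genes of integrin activation, such as Tln1 and Fermt3, which bind the β tail, 1 of 18 was lower. Of the genes of selectin ligand synthesis, such as Tpst2 and B4galt1, 1 of 8 was lower, and of other adhesion and homing receptors 3 of 13 were lower and 1 higher. The medians of these 4 lists were -0.48, -0.13, -0.13 and -0.23, against -0.10 for the members and -0.07 for all genes. Of the counter-receptors 1 gene had enough UMIs, and it did not pass. On day 10, 2 of 9 other integrin subunits were higher and 1 lower, 1 of 16 other adhesion and homing receptors was higher, and 0 of 19, 0 of 10 and 0 of 2 genes of the remaining lists passed. No gene of these lists passed 1.5-fold in the same direction on both days in T cell-like cells.

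In monocyte/macrophage-like cluster 1 on day 6, other adhesion and homing receptors included 7 of 12 lower and 1 higher, where 12.7% of all genes passed, with a median of -0.65 against -0.13 for all genes and -0.05 for the 8 members. The part of the lower T cell and NK cell markers of this cluster, given above, in that count was not tested. On day 10, 0 of 14 passed, where 3.09% of all genes did. This list and cluster were singled out from 5 lists and 5 clusters. In cluster 1 on day 6, 3 of 18 integrin activation genes and 0 of 11 selectin ligand synthesis genes were lower. Of 6 other integrin subunits 2 were lower and 1 higher, and of 4 counter-receptors 1 was lower and 1 higher. On day 6, 2 of 8 other adhesion and homing receptors were lower in cluster 0 and in cluster 10. In cluster 4 it was 0 of 5. In these clusters 10.7%, 12.3% and 13.1% of all genes passed. The levels of 2 ligands are given, chosen after their values were seen. Vcam1, the endothelial ligand of VLA-4, averaged 43.6 CPM in microglia-like cluster 10 and 5.73 CPM in cluster 1, and 0.221 CPM in T cell-like cells. Fn1, which encodes fibronectin, averaged 1328 CPM in cluster 1 and 8.24 CPM in T cell-like cells. Madcam1, the ligand of α4β7, was not analysed here.

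In bulk microglia of naive mice, 0 of 8 members passed 1.5-fold between ages, where 14.4% of 14821 genes did. These 2 libraries held 79373420 (young) and 76293436 (middle-aged) read counts. Selplg was at 2507 and 2499.6 CPM (log2 ratio, -0.00; 95% interval, -0.01 to 0.00), and Itgb2 was at 650.1 and 684 CPM (log2 ratio, 0.07; 95% interval, 0.06 to 0.09). Itgam measured 299 and 276 CPM (log2 ratio, -0.11; 95% interval, -0.14 to -0.09) and Icam1 232 and 251 CPM (log2 ratio, 0.12; 95% interval, 0.09 to 0.15). The cells had been sorted on CD11b, the product of Itgam. Itgb1 was lower in the middle-aged library, at 463 and 375 CPM (log2 ratio, -0.30; 95% interval, -0.33 to -0.28), and Itga4 was at 11.3 and 8.53 CPM (log2 ratio, -0.41; 95% interval, -0.56 to -0.26). Endothelial markers summed to 661 CPM in the young and 131 CPM in the middle-aged library, and their part in the Itgb1 value was not tested. Itgal was at 4.21 CPM in both libraries, and Itgb7 was at 1.41 and 1.87 CPM. In bulk libraries fewer cells of a type and less RNA per cell cannot be told apart. The 5 members with over 100 CPM in these libraries, in which Itga4, Itgal and Itgb7 were low, were also those above 100 CPM in microglia-like cluster 10 in all 4 single-cell libraries. This was not particular to microglia. The same 5 were those above 100 CPM in all 4 libraries in neutrophil-like cluster 0 and in monocyte/macrophage-like cluster 1. In microglia-like cluster 8, Icam1 was at 75.8 CPM in Young_d10.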

How the data were processed

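Single-cell libraries were made from CD45+ spinal cord cells, and per the labels the authors counted reads with Cell Ranger 3.1.0 on mm10. They filtered and clustered cells in Seurat, and they deposited unscaled counts of UMIs for every gene in every cell, with the number of the cluster each cell was in. Samples were placed by their titles. For bulk microglia the authors deposited raw read counts per gene (HISAT2, featureCounts, without strand). UMIs were summed by cluster and library and expressed as CPM of the sum. Age ratios carry exact conditional binomial intervals, levels Poisson intervals and shares Clopper-Pearson intervals, all at 95% and for counting error only. Members were counted at 1.5-fold with 100 UMIs or counts in both libraries together. Summed UMIs were fitted with edgeR 4.0.16 (quasi-likelihood, TMM, genes with 10 counts in 2 libraries, day and age in the model, Benjamini-Hochberg), with DESeq2 1.42.0 as an alternative. The libraries are single pools, so p-values measure the spread between these 4 libraries only. No doublet caller was run. One alternative dropped any cell in which markers of a different lineage reached 2 UMIs, or 5 in the case of neutrophil markers. The scripts were tested on simulated data. Named genes were all members, the 3 genes most correlated with each, and list genes past 1.5-fold in the same direction on both days in cluster 2. The members and lists were chosen with earlier results of these data known. The day term was tested, and fits on total UMIs without scaling factors and the removal of shared barcodes were added, after the data had been seen. Columns of values not mapped to a sample numbered 0. Alternatives are given at the end.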

Additional observations from a re-analysis of the deposited data

Results flagged for a closer look

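In 2 clusters a member passed 1.5-fold between ages in opposite directions on the 2 days. The difference between the days was not tested, since each day had 1 library per age. Itgal in microglia-like cluster 10 had a log2 ratio of middle-aged to young of 0.76 on day 6 and -0.61 on day 10, from 128 and 150 and 440 and 265 UMIs (young and middle-aged on each day). Itga4 in neutrophil-like cluster 3, outside the clusters compared above, had -0.74 on day 6 and 0.70 on day 10, with levels of 217, 129.8, 69.97 and 114 CPM, of which Young_d6 was the highest and Young_d10 the lowest.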

How the results depend on the processing

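The count of members past 1.5-fold between ages, summed over 5 clusters, was 10 on day 6 and 3 on day 10. It was 16 and 8 at a lower threshold (log2 0.32), and 4 and 1 at a fold of 2. Without cells holding markers of another lineage it was 5 and 0, but this left enough cells in clusters 0, 1, 2 and 4 only and removed over 50% of T cell-like cells in each library. TMM factors, cells of 2000 UMIs or more, the mean over cells, 10 UMIs as the minimum and removal of shared barcodes kept both counts within 1.5 times. None of the 13 log2 ratios counted changed sign under the alternatives that recomputed them. Of these 5 alternatives, the one without cells holding markers of another lineage recomputed only 10 of the 13. In bulk microglia, 2 members (Itga4 and Itgb7) were counted at log2 0.32, and 0 under the other alternatives.

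For age over both days, edgeR called 3 members in cluster 0 without the filter on low counts, where of 16025 genes 54 were called higher and 127 lower. In cluster 4 it called 0 without the day term, and DESeq2 called 0. With 1 library left out the count in cluster 4 was 0 to 1, and 0 in the other 4 clusters. Without scaling factors the day calls were 3 in cluster 0, 2 in cluster 1, 1 in cluster 2, 0 in cluster 4 and 1 in cluster 10. In cluster 0 the sign changed for Itgb1 (0.0797), Itgal (0.29), Itgb2 (0.21) and Selplg (0.15), and which scaling fits this cluster was not tested. For day over both ages, DESeq2 and the fit without age called 0 members in cluster 10. With 1 library left out, the counts were 4 to 7 in cluster 0, 0 to 5 in cluster 1, 0 to 3 in cluster 2, 0 to 1 in cluster 4 and 0 to 5 in cluster 10. Itgb7 in cluster 0 had log2 changes of -0.0703 (without the Middle-aged_d6 library) to 1.06. Fits with 1 library left out have age or day alone in the model, since both would leave no residual degree of freedom. Shares of cells with a UMI depended on the thinning depth: at 1000 UMIs all 64 shares checked (clusters 0 and 2) lay outside their intervals at 2000 UMIs, and unthinned 57 did. Pooling UMIs over libraries moved 0 of 88 levels by more than 1 SD, and the same cluster stayed highest for 7 of 8 members. No paired analysis was possible because the labels give no shared replicate numbers.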
